A study of Equus caballus with 14 samples.

Results

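CD163, CD14 and CD68 are receptors and membrane proteins by which macrophages and monocytes are recognised, and they were followed here in the mediastinal lymph nodes, which drain the lung, of horses with and without recurrent airway obstruction (RAO, also called heaves). The members were chosen by gene, 3 of the 599 genes that could be named on the array, and were measured by 4 of its 43603 probes. CD163 had 2 probes (A_69_P051726 and A_69_P051727, both for transcript ENSECAT00000020379), CD14 had 1 (A_69_P001306, transcript NM_001081927) and CD68 had 1 (A_69_P000376, transcript NM_001099762). The CD163 probe with the higher mean signal, A_69_P051726, is called the brighter probe and the other the dimmer probe.

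CD163 is a scavenger receptor of macrophages that binds complexes of haemoglobin and haptoglobin and takes them into the cell, and its expression is known to be induced by glucocorticoids, IL-10 and IL-6. CD14 is a surface protein of monocytes and macrophages that receives lipopolysaccharide from its binding protein and hands it to the receptor pair formed by TLR4 and LY96. CD68 is a glycoprotein of lysosomal membranes that is abundant in macrophages and is commonly used to mark them, whatever their state.

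The study compared 7 horses with a history of RAO with 7 control horses, all of mixed breed, and labels the RAO-affected samples as heaves. According to the study's methods, both groups were kept on pasture and then stabled with dusty hay, so the controls had received the same exposure, and the RAO-affected horses were on average older. RNA came from whole pieces of node with cortex and medulla, with 1 horse on each 1-colour Agilent array. In such tissue, fewer cells of a type and less RNA per cell cannot be told apart, and neither can more cells and more RNA per cell. Both groups were present on each of the 4 slides. Slide 1, with RAO-affected horse 4 beside control horses 3 and 5, was scanned on another day than the rest and had a median background intensity of 45.5 to 46, against 55 to 97 on slides 2 to 4. Signal is given as log2 of the background-subtracted intensity after quantile normalization, so that a difference of 1 is a 2-fold difference. Each probe has its own binding strength, so a level is compared between horses and never between probes. All 4 probes were well above background on all 14 arrays. Of the T and NK cell genes expected in a lymph node, all 5 located on the array were also well above background in every horse, and no gene of the B cell list was located.

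The probe sequences were not used here. The primer pair that the study used for RT-PCR of CD163 is shown because its transcript identifier ties both CD163 probes to the gene. Each primer is printed 5′ to 3′ and has 20 bases.
CD163 forward primer: tcagtgcctgtttgatcacc
CD163 reverse primer: tcctggactttcacctccac

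CD163 was higher in RAO-affected horses, and no RAO-affected horse overlapped with a control horse on either probe. On the brighter probe the control horses had log2 signals of 8.82 at the lowest, 9.66 at the median and 11.08 at the highest. The RAO-affected horses had 11.11 at the lowest, 12.09 at the median and 14.25 at the highest. The highest control was horse 5 and the lowest RAO-affected horse was horse 6, and these neighbours were almost level, while RAO-affected horse 8 stood well above the rest of its group. The RAO-affected mean of 12.39 ± 1.03 (SD, n = 7) exceeded the control mean of 9.78 ± 0.80 (SD, n = 7) by 2.61 (SE 0.47), a 6.10-fold difference with a 95% interval of 3.05 to 12.2. The two-sided exact permutation test of the group labels over the 14 horses gave p = 0.000583, the smallest that 7 against 7 allow.

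The dimmer CD163 probe gave the same order of groups. Its control horses ranged from 8.04 to 10.58 with a median of 9.23, and its RAO-affected horses from 10.87 to 14.18 with a median of 11.91. The log2 difference was 2.93 (SE 0.49), 7.61-fold with a 95% interval of 3.68 to 15.7, and the exact permutation test gave p = 0.000583 again. Both probes target the same transcript and share the RNA of each horse, so they are not independent measurements. Their log2 signals, each taken as the deviation from its group mean, had a Pearson r of 0.99 over the 14 horses. The gap between them was smaller in RAO-affected horses. Dimmer minus brighter probe on the log2 scale was −0.17 ± 0.09 (SD, n = 7) in the RAO-affected group and −0.49 ± 0.17 (SD, n = 7) in controls (difference of the gaps 0.32, two-sided exact permutation p = 0.0012). Neither probe was saturated on any array.

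**Figure D1:**
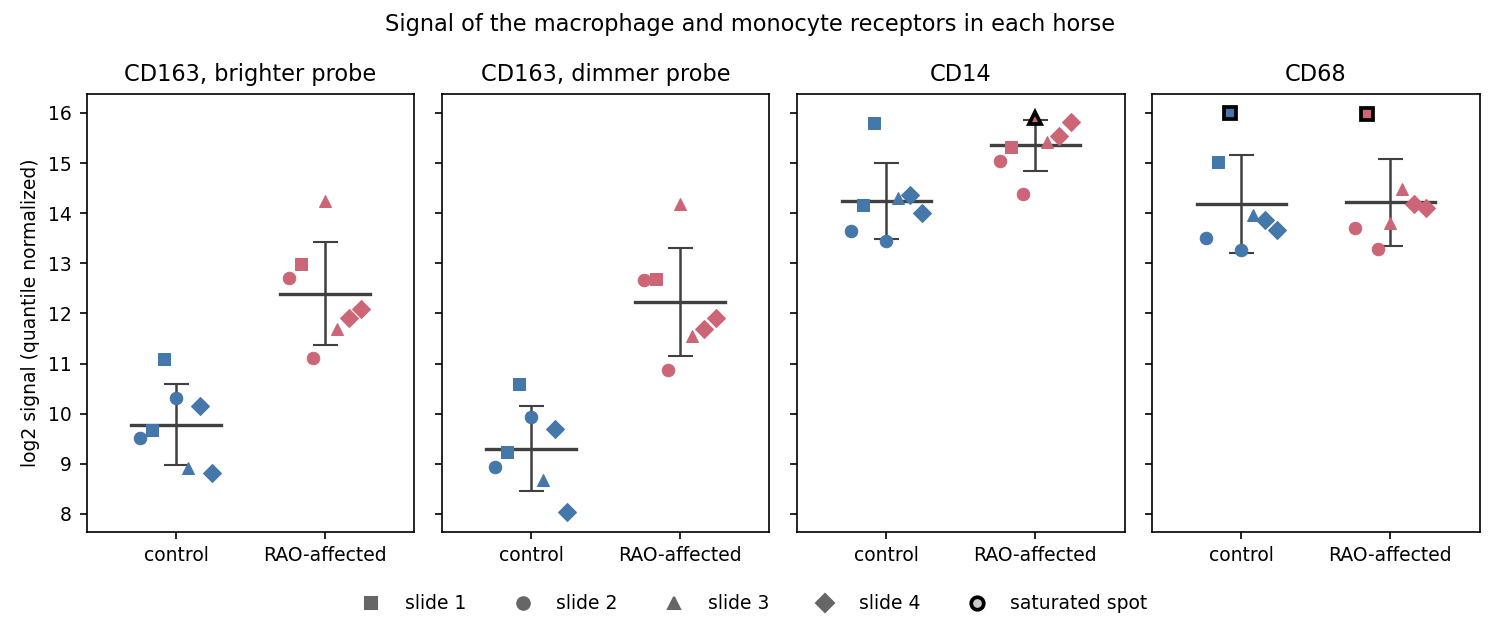
Log2 signal after quantile normalization (vertical axis) of the 4 receptor probes in each horse, with 7 horses a group. Points are horses with the slide as the marker shape, a black outline marks a saturated spot, and bars give the mean and SD. CD163 separates the groups on both probes, CD14 differs in mean with overlap, and CD68 is high in both groups on slide 1.

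CD14 was also higher in RAO-affected horses, by less than CD163, and its groups overlapped. The control horses had log2 signals of 13.45 at the lowest, 14.16 at the median and 15.80 at the highest. The RAO-affected horses had 14.39 at the lowest, 15.43 at the median and 15.91 at the highest. Control horse 5 lay far above the other 6 controls, which reached 14.36, and only RAO-affected horses 8 and 14 exceeded it. All 7 RAO-affected horses were above the control mean. The means were 15.35 ± 0.52 (SD, n = 7) and 14.24 ± 0.76 (SD, n = 7), a log2 difference of 1.11 (SE 0.33) or 2.16-fold with a 95% interval of 1.32 to 3.53 (two-sided exact permutation p = 0.0117). The spot was saturated in 1 RAO-affected horse, horse 8, where the true signal may be higher than the value used.

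CD68 did not pass the test. The control horses had log2 signals of 13.26 at the lowest, 13.87 at the median and 15.99 at the highest, and the RAO-affected horses 13.28, 14.10 and 15.99. The ranges covered each other almost completely. The means were 14.22 ± 0.87 (SD, n = 7) and 14.18 ± 0.97 (SD, n = 7), 0.04 apart on the log2 scale (SE 0.47, two-sided exact permutation p = 0.942). Its 95% interval ran from −0.96 to 1.04, or from 0.513-fold to 2.05-fold, so a difference of that size in either direction was not detectable with this spread. Most of that spread lay between slides. The 3 horses of slide 1 had log2 signals of 15.01 to 15.99, above all 11 horses of slides 2 to 4 at 13.26 to 14.48. The CD68 spot was saturated in 1 horse of each group, control horse 5 and RAO-affected horse 4, both on slide 1.

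Across all 38674 probes tested with limma, 425 were at least 2-fold higher in RAO-affected horses at an unadjusted p under 0.05, which is 1.1%, and 569 probes, 1.47%, passed in either direction. Both CD163 probes and the CD14 probe were among the 425, and the CD68 probe was not. After Benjamini-Hochberg adjustment over all probes no probe passed, and limma gave an adjusted p of 0.873 for CD163 and CD14 and 0.996 for CD68. At an unadjusted p under 0.05 alone, limma called 2177 probes, or 5.63%, close to the share that such a threshold passes by chance. Of the 38037 probes measured on every array, 11 had all RAO-affected horses above all controls, which is 0.0289%, and the 2 CD163 probes belonged to them. Full separation in either direction has a two-sided exact permutation p of 0.000583. The share found in this 1 direction is thus about what label order alone gives. The median difference over all probes was −0.03, and 26 probes, 0.0672%, had a difference at least as large as the brighter CD163 probe.

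**Figure D2:**
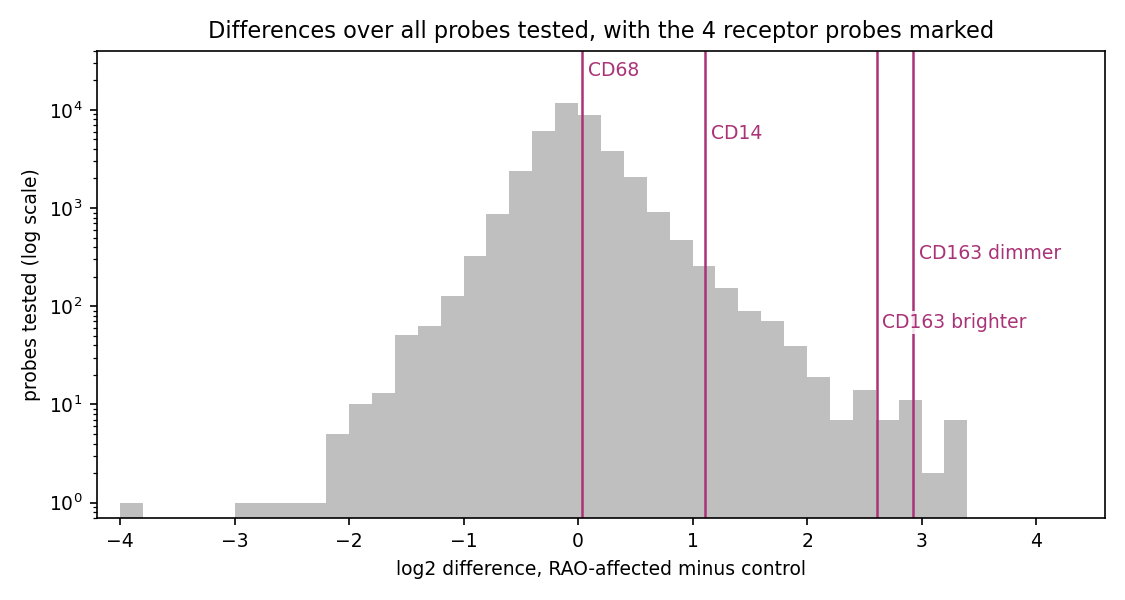
Number of probes (vertical axis, log scale) by log2 difference between RAO-affected and control means (horizontal axis, bins of 0.2), over the 38674 probes tested. Vertical lines mark the 4 receptor probes. The CD68 line stands near the centre at 0.04, CD14 at 1.11, and the CD163 probes at 2.61 and 2.93 in the thin right tail.

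Because slide 1 stood apart, each difference was also estimated within slides. For the brighter CD163 probe, RAO-affected minus control was 2.61 on slide 1, 2.0 on slide 2, 4.05 on slide 3 and 2.51 on slide 4 on the log2 scale. With slide as a fixed block the difference was 2.68, or 6.42-fold, and permutation within slides gave an exact p of 0.00309, the smallest that this design allows. The CD163 signal was thus higher in RAO-affected horses on all 4 slides. Slide 1 held 1 RAO-affected horse, and slide 3, with the largest difference, held 1 control. For CD14 the within-slide differences were 0.34, 1.18, 1.37 and 1.5 on slides 1 to 4. The smallest came from the slide of control horse 5. The blocked CD14 difference was 1.15, or 2.21-fold (exact permutation p within slides 0.0123).

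For CD68, the differences within slides 1 to 4 were 0.48, 0.11, 0.18 and 0.37. All were small and positive. Taking out the slide means narrowed the estimate to a log2 difference of 0.28 (SE 0.17) with a 95% interval of −0.10 to 0.65, or 0.936-fold to 1.57-fold, and the within-slide exact permutation p was 0.133. The blocked fit therefore gave a narrower interval for CD68 than the unblocked one. It took the saturated CD68 spots of control horse 5 and RAO-affected horse 4, both on slide 1, as measured values. With the block, limma's adjusted p over all probes was 0.355 for CD163 and CD14, and no probe passed after adjustment. At least 2-fold and an unadjusted p under 0.05 in the higher direction then held for 1.06% of probes, CD163 and CD14 among them.

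**Figure D3:**
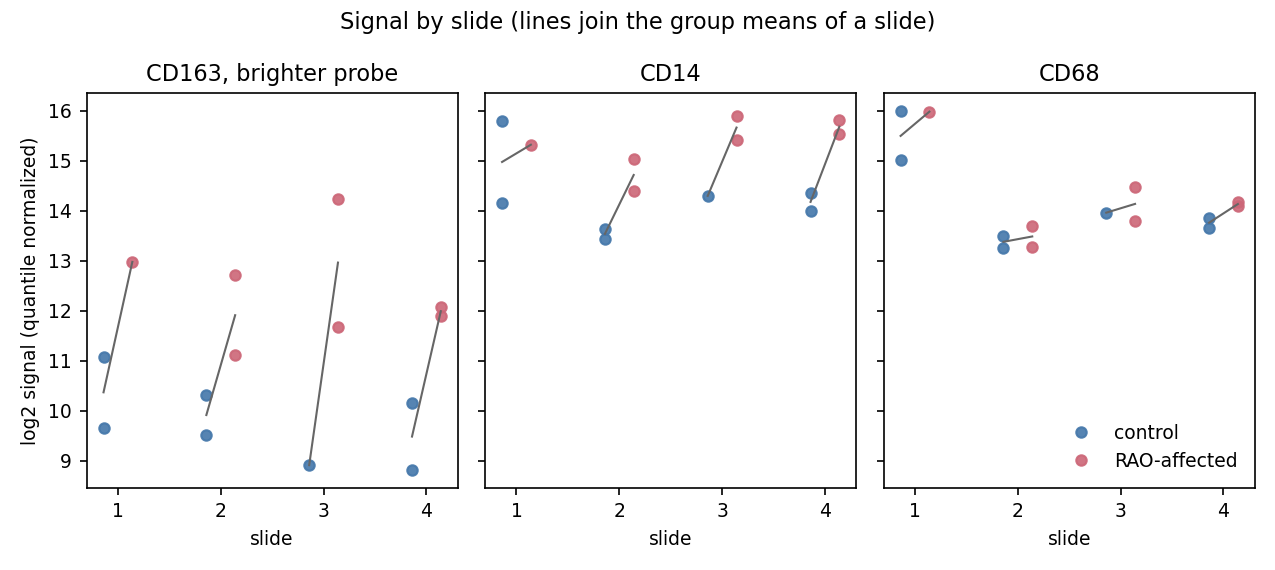
Log2 signal of the brighter CD163 probe, CD14 and CD68 (vertical axis) in each horse by slide (horizontal axis), with controls in blue at the left and RAO-affected horses in red at the right of each slide. Lines join the group means within a slide. The CD163 lines rise by 2.0 to 4.05, the CD14 lines by 0.34 to 1.5 and the CD68 lines by 0.11 to 0.48, and CD68 is highest on slide 1.

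CD163 and CD14 were also set against CD68 as ratios within each horse, taken as differences of log2 signals on 1 array. The CD68 group means were only 0.04 apart, so without a block each ratio's mean difference had to lie close to the receptor's own. The ratios therefore cannot decide whether CD163 and CD14 differed beyond the number of macrophages. Such a ratio depends on the binding strength of both probes, so only its change between horses can be read. CD163 relative to CD68 was −5.35 at the lowest, −4.84 at the median and −2.95 at the highest in controls. In RAO-affected horses it was −3.01 at the lowest, −2.16 at the median and 0.44 at the highest. The groups overlapped by 1 horse on each side, RAO-affected horse 4 and control horse 7, and the other 6 RAO-affected horses were above all controls. The difference of the mean log2 ratios was 2.57 (SE 0.54), 5.94-fold with a 95% interval of 2.70 to 13.1 (two-sided exact permutation p = 0.0012). With the dimmer probe it was 2.89, or 7.41-fold, and all 7 RAO-affected horses were above all controls (exact permutation p = 0.000583). Within slides 1 to 4 the brighter probe's ratio differed by 2.12, 1.89, 3.88 and 2.13, and the blocked difference was 2.41. The CD163 difference was about as large relative to CD68 as on its own.

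CD14 relative to CD68 was −0.85 at the lowest, 0.18 at the median and 0.49 at the highest in controls. In RAO-affected horses it was −0.66 at the lowest, 1.34 at the median and 2.11 at the highest. In the RAO-affected group 6 horses lay above every control, at 0.95 or more, and horse 4 lay among the lowest of both groups. The mean log2 ratio was higher by 1.07 (SE 0.43), 2.10-fold with a 95% interval of 1.13 to 3.91 (two-sided exact permutation p = 0.0181). RAO-affected horse 4 had a saturated CD68 spot and was the only RAO-affected horse on slide 1, where the ratio differed by −0.14, against 1.07, 1.19 and 1.13 on slides 2, 3 and 4. Without slide 1 the difference was 1.14, and with slide as a block it was 0.87 (exact permutation p within slides 0.0123). Leaving out 1 horse at a time gave 0.91 to 1.37. The limma p rose to 0.0543 without RAO-affected horse 8 and to 0.0529 without control horse 3, where the differences were 0.91 and 0.92.

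CD163 also differed relative to CD14. This log2 ratio ranged from −5.39 to −3.13 in controls with a median of −4.50, and from −3.74 to −1.66 in RAO-affected horses with a median of −3.28. RAO-affected horses 2, 4 and 8 were above all controls, and 6 controls were below all RAO-affected horses. The difference of 1.5 (SE 0.44) was 2.83-fold with a 95% interval of 1.51 to 5.30 (two-sided exact permutation p = 0.00641), and within slides 1 to 4 it was 2.26, 0.82, 2.69 and 1.0. On these probes the difference of CD163 was thus larger than that of CD14. The CD14 spot of RAO-affected horse 8 was saturated, so its true signal may be higher there.

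Read against all probes, 233 of 38673 probes, 0.602%, were at least 2-fold higher relative to CD68 at an unadjusted p under 0.05 in limma, out of 0.954% in either direction. CD163 (adjusted p = 0.618) and CD14 (adjusted p = 1 after rounding) were both among those that limma called higher. With slide as a block 1.89% were called, 0.587% higher and 1.3% lower, and CD163 passed 2-fold while the CD14 ratio was 1.83-fold. No probe passed adjustment relative to CD68 in limma in either fit. No overlap between the groups in this ratio, as on the dimmer CD163 probe, was found for 0.021% of probes. That share is no larger than label order alone gives. Relative to CD14, limma gave CD163 an adjusted p of 0.0214, one of 23 probes, 0.0595%, that were at least 2-fold higher after adjustment, but 67.8% of all probes passed in either direction because CD14 itself had been subtracted. Without the 3 arrays on which a CD14 or CD68 spot was saturated, the differences were 2.34 for CD163, 1.26 for CD14, 0.07 for CD68, 2.27 for CD163 relative to CD68, 1.19 for CD14 relative to CD68 and 1.07 for CD163 relative to CD14.

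**Figure D4:**
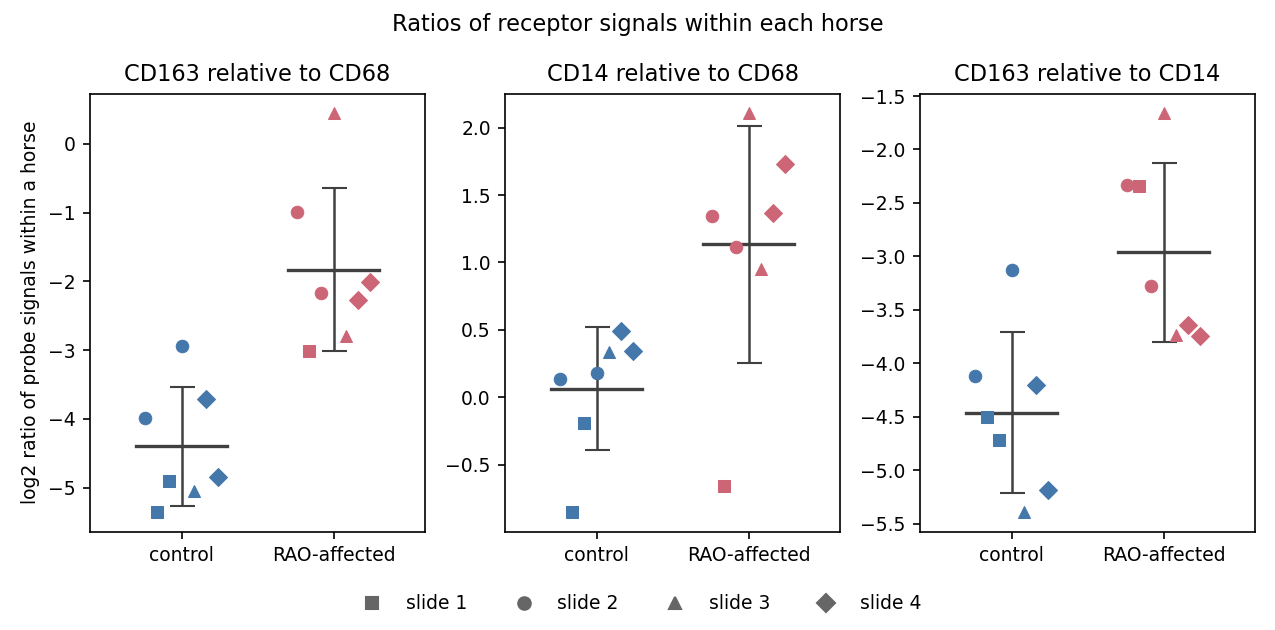
Log2 ratio of 2 probe signals within each horse (vertical axes, each with its own range) in control and RAO-affected horses, for CD163 and CD14 relative to CD68 and for CD163 relative to CD14. Points are horses with the slide as the marker shape, and bars give the mean and SD. RAO-affected horse 4, the square in the RAO-affected group, is the lowest of its group in both ratios to CD68, at −3.01 and −0.66.

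**Figure D5:**
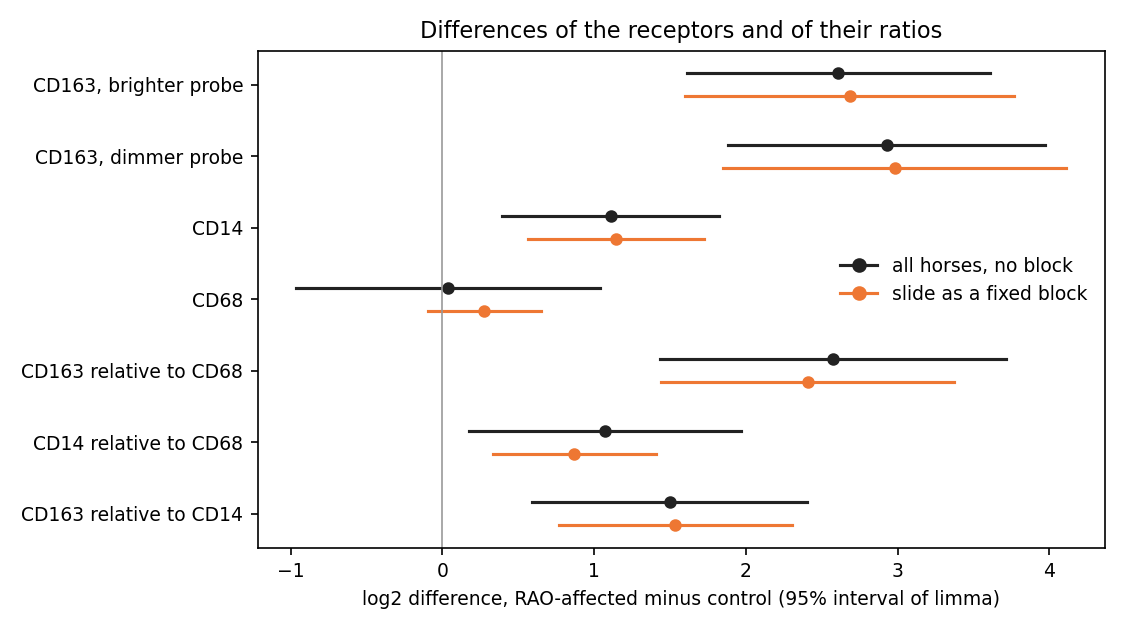
RAO-affected minus control on the log2 scale (horizontal axis) with its 95% interval from limma for the 4 probes and the 3 ratios, without a block in black and with slide as a fixed block in orange. The CD68 interval includes 0 in both fits and narrows with the block, and the intervals of the other 6 quantities lie above 0.

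Within groups, the receptors were set against each other over 7 horses each, with 6 relations in all. CD14 and CD68 moved together among the controls, with a Pearson r of 0.89 (exact permutation p = 0.00952, adjusted p = 0.0571) and a Spearman rho of 0.86 (exact permutation p = 0.0238, adjusted p = 0.143). Without the 2 horses farthest from the CD68 median the r was 0.97. Over all 7 it passed the adjustment with normexp background correction (r 0.92, exact permutation adjusted p = 0.025) and with no scaling between arrays (r 0.94, exact permutation adjusted p = 0.00119), and not after quantile normalization or 75th percentile scaling (r 0.84, exact permutation adjusted p = 0.127). In RAO-affected horses the r of CD14 with CD68 was 0.27 (rho 0.29, exact permutation p = 0.509 and 0.556). For CD163 with CD14 the r was 0.58 in RAO-affected horses (rho 0.46, exact permutation p = 0.171 and 0.302), and in controls it was 0.54 (rho 0.29, exact permutation p = 0.21 and 0.556). CD163 with CD68 gave 0.22 in RAO-affected horses (rho 0.18, exact permutation p = 0.61 and 0.713) and 0.53 in controls (rho 0.21, exact permutation p = 0.216 and 0.662). Without the 2 horses farthest from the group's median of the second gene, the r of CD163 with CD14 was −0.57 in RAO-affected horses and 0.18 in controls, and that of CD163 with CD68 was −0.74 and −0.48, so 3 of these 4 turned negative and the other fell. After slide means were removed within a group, which leaves few free values since each slide held 1 or 2 of its horses, CD163 with CD14 gave 0.90 in RAO-affected horses and 0.74 in controls, CD163 with CD68 gave −0.44 and 0.68, and CD14 with CD68 gave −0.10 and 0.99.

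The named genes most like each receptor were found from the Pearson r over the 14 horses after each group mean had been subtracted, among 526 named genes, as a description without a test. All points shared array and slide with the receptor. For CD163 the highest were SOCS3, an inhibitor of cytokine signalling (0.83), the aggrecan-cleaving protease ADAMTS4 (0.74), the phospholipase PLA2G4A (0.73), the collagenase MMP1 (0.72) and the RNA-sensing receptor TLR7 (0.70). After removal of slide means as well they were 0.81, 0.86, 0.83, 0.86 and 0.65. Without RAO-affected horse 8, which had the most CD163, they were 0.72, 0.62, 0.60, 0.53 and 0.59. MMP1 differed between the groups by 2.68 on the log2 scale (limma, adjusted p = 0.873), and SOCS3 by 0.04 (limma, adjusted p = 0.988).

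For CD14 the most similar genes were SAA, an acute phase protein (0.88), ZDHHC9, a palmitoyltransferase subunit (0.85), and TIMP1, an inhibitor of metalloproteinases (0.83). Within slides these were 0.78, 0.64 and 0.64, and without control horse 5 they were 0.76, 0.81 and 0.76. For CD68 they were the olfactory receptor gene OR7D20 (0.96), LOC100056557 (0.92) and the growth factor IGF2 (0.92). These CD68 values fell to 0.53, 0.44 and 0.02 once slide means were removed. Among the receptors themselves, CD163 with CD14 had 0.53, or 0.59 within slides, CD163 with CD68 had 0.36, or 0.07 within slides, and CD14 with CD68 had 0.65, or 0.49 within slides. Within slides, the r of CD163 with CD68 over both groups together was thus near 0.

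Of 50 macrophage and monocyte genes listed, 9 were located on the array, and CD163 and CD14 were the 2 called higher, with none lower, where 1.1% of all probes were called higher. On their brightest probes the other 6 besides CD68 all had positive differences, with a median of 0.50, and none reached 2-fold. They were ITGAX, an integrin chain of myeloid cells (log2 difference 0.58, exact permutation p = 0.0221), the chemokine receptor CCR2 (0.15, exact permutation p = 0.548) and its ligand CCL2 (0.14, exact permutation p = 0.601). The rest were the inducible nitric oxide synthase NOS2 (0.65, exact permutation p = 0.0740) and the receptors TLR2 (0.42, exact permutation p = 0.0868) and TLR4 (0.58, exact permutation p = 0.00816). Over 7 tested probes each, ITGAX ran from 0.17 to 0.58 and NOS2 from −0.065 to 0.65. The means over their probes differed by 0.31 and 0.30. CCL2 was saturated in 3 RAO-affected horses and in no control, so its level was only bounded there. The log2 of the summed signal of the 6 genes was 16.34 to 17.42 in RAO-affected and 16.17 to 16.84 in control horses, so the groups overlapped. In such a sum brighter probes count for more, and CCL2 was the brightest. The part of this signal in the CD163 and CD14 differences was not tested.

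In the lipopolysaccharide pathway that CD14 serves, 7 of 26 listed genes were located, and CD14 was the only one called on its brightest probe. Of its partners, TLR4 averaged 15.10 ± 0.47 (SD, n = 7) against 14.52 ± 0.19 (SD, n = 7) in controls, 1.49-fold. LY96, which binds lipopolysaccharide beside TLR4, had a difference of 0.03 but was saturated in 5 RAO-affected and 4 control horses, so its level was only bounded there. Among cytokines that the pathway induces, TNF differed by −0.12, IL1B by 0.92 and IL6 by 0.35 on the log2 scale. Without RAO-affected horse 8 the IL1B difference was 0.42 and that of IL6 was −0.23. The IL1B signal cannot be assigned to 1 of its near-identical gene copies. RAO-affected horse 8, the horse with the most CD163 and CD14, was also far above its group for TLR2, IL1B and IL6.

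Around CD163, 7 of 27 listed genes were located, and CD163 was the only one called on its brightest probe. Among cytokines known to raise its expression, IL10 differed by −0.08 (exact permutation p = 0.504) and IL6 by 0.35 (exact permutation p = 0.787). Of those known to lower it, IFNG differed by −0.25 (exact permutation p = 0.245) and TNF by −0.12 (exact permutation p = 0.693). For IL4 the choice of probe and setting decided the call. The difference was −0.98 on its brightest probe, just short of 2-fold (exact permutation p = 0.0297, limma adjusted p = 0.873), −1.07 with slide as a block and −0.50 with normexp. Over its 17 probes the differences ran from −1.76 to −0.59, 13 of them were called lower, and the mean over the probes differed by −1.22, also called. The brightest spot was above background by the scanner software's flag in all 7 controls and in 5 RAO-affected horses. The light chain of the iron store ferritin, FTL, was saturated on all 14 arrays and has no value here. Haptoglobin, haem oxygenase and the glucocorticoid response genes of the list were not located, and of 26 lysosomal genes CD68 was the only one located.

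Of 15 located markers of other cells in or beside a lymph node, 5 were called higher and none lower on the brightest probe. Over all probes of the array, 1.1% were called higher. For the 5 located T and NK cell genes, the log2 of the summed signal was 15.43 to 16.68 in RAO-affected and 15.50 to 16.32 in control horses. None of the 5 was called on its brightest probe, with differences of −0.88 to 0.09. Of these, the killer cell receptor KIR3DL was called lower on 2 of its 3 probes, which ran from −1.76 to −0.88, and on their mean, at −1.37. MMP9, a gelatinase stored by neutrophils and the single located gene of that list, was 2.50-fold higher, with log2 signals of 13.26 to 15.72 and 12.15 to 15. Of 5 endothelial and stromal genes 3 were higher, namely SELP, the P-selectin of platelets and endothelium (3.12-fold), CAV1, the coat protein of caveolae (2.32-fold), and the collagen-binding proteoglycan LUM (2.85-fold, from 6 RAO-affected horses because 1 spot was an outlier). The uncalled PECAM1 and DCN differed by 0.45 and 0.19. DCN was saturated in 4 RAO-affected horses and 1 control and LUM in 2 RAO-affected horses, so their levels were only bounded there. The log2 of that list's summed signal was 15.86 to 17.76 against 15.05 to 16.94. Of 2 lung epithelial genes, SCGB1A1, the club cell secretory protein, was 2.51-fold higher, and the uncalled surfactant gene SFTPA1 differed by 0.54. The log2 of their summed signal was 12.52 to 15.81 against 11.93 to 14.13. The mast cell genes TPSB2 and FCER1A differed by 0.77 (exact permutation p = 0.358) and 1.04, or 2.06-fold (exact permutation p = 0.0752), and were not called. The log2 of their summed signal reached 14.51 against 14.17. In limma CAV1 missed the unadjusted threshold of 0.05 when slide was a block (difference 1.16) and without any 1 of control horses 7 and 13 and RAO-affected horses 12 and 14 (0.86 to 1.1), and SCGB1A1 missed it without control horse 5 or RAO-affected horse 6 (1.15 and 1.07). On the mean over its 5 probes CAV1 differed by 0.99, short of 2-fold. None of these lists had a gene below background throughout a group, and their part in the CD163 and CD14 differences was not tested.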

How the data were processed

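Per the file headers, the authors deposited for each of the 14 arrays an intensity per spot from which Feature Extraction (10.5.1.1 in the headers, 9.1 in the submitters' processing notes) had subtracted the background, without scaling across arrays. They also deposited a table of ratio values, the quantile-normalized signal over each probe's median. Control and outlier spots were left out, and spots of a probe averaged. Intensities were log2 transformed and quantile normalized, and a probe had to be well above background on 4 or more arrays to enter the two-sided test (38674 did) with limma 3.58.1 (R 4.3.3), RAO-affected against control, unpaired, with Benjamini-Hochberg adjustment. Exact permutation covered 3432 splits of the horses, or 324 within slides (scipy 1.17.1). The number of arrays limits the precision. Each horse was a separate animal.

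Probes were named through RefSeq accessions (1231) and the study's primer table (20), 2.87% in all. The array's genome build was not given in the sources used here, so no coordinates are printed. Where a gene had more than 1 probe, the brightest stood for it. The members and gene lists were chosen with earlier results of these data known. Named are the receptors, the 5, 3 and 3 genes most like CD163, CD14 and CD68, and the located genes of the macrophage and pathway lists. Genes at least 2-fold different at an unadjusted p under 0.05 are named only where they belong to a list. Genes of the other lists are named where they bear on a list's count. Alternatives were 75th percentile scaling, no scaling, normexp (offset 50) on median signals because the files hold no mean, other filters, slide as a block, without slide 1, the ratio table, the methods' t-test unpaired, other probe choices, and each horse left out. The fit was tested on simulated data.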

Additional observations from a re-analysis of the deposited data

Results flagged for a closer look

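In each group of 7 horses, the gap of the highest or lowest horse to its neighbour was divided by the range of the group and compared with 0.568, Dixon's critical value for 7. Of 54 groups tested, 7 exceeded it, while chance flags about 1 in 20. Values are log2 signals or log2 ratios. For CD14, control horse 5 was far above its group at 15.80, against 13.45 to 14.36 in the other 6. For CD14 relative to CD68, RAO-affected horse 4 was far below its group at −0.66, against 0.95 to 2.11 in the others. RAO-affected horse 8 was far above its group for TLR2 at 15.61, for IL1B at 14.37 and for IL6 at 14.22. RAO-affected horse 4 was far above its group for TNF at 10.90, where the others reached 10.10. Control horse 9 was far above its group for IFNG at 9.76, against 9.03 to 9.26.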

How the results depend on the processing

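The differences of both CD163 probes, of CD14, and of CD163 relative to CD68 and to CD14 kept their direction and their side of an unadjusted p of 0.05 under both other scalings, normexp, slide as a block, without slide 1, the ratio table, the methods' t-test, without the saturated arrays, and without each horse. Other filters on dim probes were run for counts and for the genes of the lists, not for these differences. Leaving out horses gave 2.30 to 2.83 for the brighter and 2.60 to 3.15 for the dimmer CD163 probe, 0.98 to 1.37 for CD14, 2.19 to 2.81 for CD163 relative to CD68 and 1.28 to 1.72 for CD163 relative to CD14. CD14 relative to CD68 gave 0.91 to 1.37 and lost the threshold without control horse 3 or RAO-affected horse 8. CD68 gave −0.26 without RAO-affected horse 4 to 0.34 without control horse 5, and 6 of 14 were negative. The macrophage list held 1 called gene without control horse 7, where CD14 fell just short of 2-fold, and otherwise 2. The other lists, with the pathway lists among them, held 23 tested genes outside the macrophage list, and 21 with the filter at all 14 arrays. Of these genes 4 to 7 were called, and 5 in the main fit, where 1.47% of all probes were called. Without slide 1, where 7 of them were called, 1111 of 38674 probes were called. When all probes of a gene were averaged 6 were called, with IL4 and KIR3DL lower and CAV1 not called.

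The count of probes at least 2-fold different was 569, and 262 with normexp, 291 with the filter at all 14 arrays, 1111 without slide 1, and 386 to 1117 with horses left out (highest without RAO-affected horse 4). The methods' t-test, run unpaired, called 489 probes, and 0 after Benjamini-Hochberg adjustment. Relative to CD68 the limma count was 369, and 134, 163, 1298 and 214 to 1218 in the same order, and 729 with slide as a block, where 227 were higher and 502 lower. Fewer probes were tested with the stricter filter, and otherwise the cause was not tested. LY96 turned to −0.043 with 75th percentile scaling, TNF to 0.036 with the block and 0.015 without slide 1. With horses left out TNF ranged from −0.28 to 0.0031 (without control horse 5) and IL6 from −0.23 (without RAO-affected horse 8) to 0.54. CAV1 lost the threshold with the block. The correlation of CD163 with CD68 in controls was 0.77 with no scaling (exact permutation p = 0.0321, adjusted p = 0.0964), an alternative chosen after seeing the data, as was leaving out arrays with saturated spots. Saturation limits CD14 and CD68 at the top of the scale. The study's methods name paired t-tests, but neither the labels nor the text say which horses form a pair, so no paired analysis was run.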
